A study of Caenorhabditis elegans with 2 samples.

Results

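The loci described here are the transfer RNA (tRNA) genes on chromosomes II, III, IV and V of the nematode Caenorhabditis elegans, each taken as the gene body with 250 bp on either side. All 270 nuclear tRNA genes that the Ensembl annotation of WBcel235 places on these chromosomes were included, of 612 in the nuclear genome; the rule itself uses no measured value. Chromosome II holds 57 of them, III 64, IV 71 and V 78. The chromatin came from whole hermaphrodite young adults of strain OP537, collected 67 h after synchronization as starved L1 larvae. The strain carries the mutation unc-119(tm4063) on chromosome III and the transgene wgIs537, which expresses MXL-1 with a C-terminal GFP-FLAG tag. ChIP-seq was done with an antibody to GFP, per the sample descriptions, although the antibody field of the labels reads mxl-1. There was 1 group with 2 biological replicates of this single transgenic line, so no condition could be compared with another, and every value comes from a mixture of all tissues.

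MXL-1 is a relative of Max with a basic helix-loop-helix domain and a leucine zipper. Proteins of the Max network bind DNA as dimers and are best known for the E-box CACGTG. Genes for tRNA are transcribed by RNA polymerase III from promoters that lie inside the gene. Box A near the 5′ end and box B nearer the 3′ end are bound by the factor TFIIIC, which places TFIIIB just upstream of the start, and a run of T residues on the coding strand ends transcription. Each isotype, the set of tRNAs that carry 1 amino acid, is served by many genes, often identical in sequence and scattered over the genome, and many nematode tRNA genes lie within introns of protein-coding genes.

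A locus was called bound when the summit of a peak in the authors' thresholded list fell within it, and the strongest such peak was kept. The authors' pooled list, which the thresholded list tops by signal, and the separate list of each replicate were read in the same way. The authors label the pooled and replicate lists as peaks and background. An entry found only there is called a peak below but need not be binding. The peak signal is the authors' own value per peak and has no stated scale, so it serves here to order peaks inside 1 list and not to compare lists. Sequencing depth is unknown. The intervals given for shares are exact (Clopper-Pearson) and those for differences of shares are Newcombe intervals, both at 95%. They cover the counting of loci only.

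The sequences that carry the findings come from RefSeq on WBcel235 and show the coding strand of the gene body with the 20 bp that follow it. Capitals mark a box A core (TNGCNNAG) and a box B core (GTTCNANNC) where present, and the first run of 4 or more T after the gene. The first pair stood under the strongest peak at any of the 270 loci. The lysine gene T23F1.t1 (chrV:15465086-15465178 with its flank, plus strand) and the proline gene T23F1.t2 (chrV:15465205-15465296, minus strand) point towards each other, with their 3′ ends facing, and neither lies in a protein-coding gene.
T23F1.t1, Lys: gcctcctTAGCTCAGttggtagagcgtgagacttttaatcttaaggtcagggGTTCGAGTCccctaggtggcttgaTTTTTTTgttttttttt
T23F1.t2, Pro: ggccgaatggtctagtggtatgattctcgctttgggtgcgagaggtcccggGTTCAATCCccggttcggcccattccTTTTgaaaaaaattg

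The second set shows 3 further copies of the same proline gene, identical over all 72 bp, that differed in signal. F02H6.t1 (chrIV:14225102-14225193, plus strand, outside protein-coding genes) was bound. Y71H2AM.t1 (chrIII:2711711-2711802, plus strand, in an intron of cox-6B) had a peak only in the pooled list. R11G10.t2 (chrV:13507183-13507274, minus strand, in an intron of avr-15) had none there. In the stretch printed here their letters differ only after the gene ends. The sequence before each gene is not shown and was not compared.
F02H6.t1, Pro: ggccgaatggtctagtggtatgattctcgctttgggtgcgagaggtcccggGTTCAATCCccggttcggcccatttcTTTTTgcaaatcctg
Y71H2AM.t1, Pro: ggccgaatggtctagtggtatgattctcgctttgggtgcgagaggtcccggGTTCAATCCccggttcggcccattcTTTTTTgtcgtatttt
R11G10.t2, Pro: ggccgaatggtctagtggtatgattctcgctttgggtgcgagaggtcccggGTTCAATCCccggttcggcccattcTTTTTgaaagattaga

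The third set shows genes with no identical copy, and a common alanine gene for comparison. T28C12.t1 (chrV:6335398-6335489, plus strand, in an intron of T28C12.6) and C14B9.t2 (chrIII:8109603-8109744, plus strand, in an intron of C14B9.3) carried the strongest peaks at such genes. C14B9.t2 has an intron of its own, which makes the gene 122 bp long. C28A5.t3 (chrIII:4428933-4429024, minus strand, in an intron of C28A5.6) differs from the alanine gene Y65A5A.t1 (chrIV:16398384-16398475, plus strand) by the single substitution G1C, counted from the 5′ end of the gene with the base of Y65A5A.t1 first. K11H12.t1 (chrIV:658181-658286, plus strand, in an intron of K11H12.8) encodes the tRNA for selenocysteine, which inserts that amino acid at recoded stop codons.
T28C12.t1, Cys: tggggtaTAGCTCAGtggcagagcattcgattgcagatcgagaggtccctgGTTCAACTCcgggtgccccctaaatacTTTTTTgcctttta
C14B9.t2, Leu: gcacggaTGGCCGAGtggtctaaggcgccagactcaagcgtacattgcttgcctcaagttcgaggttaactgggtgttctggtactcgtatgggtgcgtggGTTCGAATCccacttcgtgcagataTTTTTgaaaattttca
Y65A5A.t1, Ala: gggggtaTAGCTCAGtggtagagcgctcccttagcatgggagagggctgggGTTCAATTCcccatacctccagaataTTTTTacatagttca
C28A5.t3, Ala: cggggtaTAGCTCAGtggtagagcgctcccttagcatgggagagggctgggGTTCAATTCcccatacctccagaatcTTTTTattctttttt
K11H12.t1, Sec: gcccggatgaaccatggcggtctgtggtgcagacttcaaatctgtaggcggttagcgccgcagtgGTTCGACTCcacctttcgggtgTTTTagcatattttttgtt

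MXL-1 peaks lay at many tRNA loci on these chromosomes. Of the 270 loci, 121 were bound (44.8%, 38.8 to 51.0), against 56 of 14364 protein-coding gene starts on the same chromosomes in windows of the same median length (0.39%). A further 101 loci (37.4%) had a peak in the pooled list below the authors' threshold, and 48 (17.8%) had no pooled peak. Any pooled peak was thus found at 222 loci (82.2%), against 11.4% of protein-coding starts. That list includes background by its label, so this share is not a share of loci with binding. The bound loci were marked by 108 peaks, which are 34.5% (29.2 to 40.1) of the 313 thresholded peaks on II to V. Of these peaks, 95 marked 1 tRNA gene and 13 marked 2 neighbouring genes, so bound loci that share a peak are not independent of each other.

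The replicates gave similar shares but not the same set of loci. Among the strongest 557 peaks of each replicate, as many as the thresholded list holds, replicate 1 marked 105 loci (38.9%, against 0.432% of protein-coding starts) and replicate 2 marked 103 (38.1%, against 0.404%). They had 71 loci in common, which is 67.6% of the loci of replicate 1 and 68.9% of those of replicate 2. Of the 121 bound loci, 120 had a peak of any strength in both replicates and 1 had a peak in replicate 2 only. All 71 loci in common were bound, 43 bound loci were among the strongest of 1 replicate only, and 7 were among the strongest of neither. The authors label the thresholded list as made from both replicates with an IDR (irreproducible discovery rate) threshold. Agreement of the replicates at bound loci is therefore in part set by how that list was made, and is no separate support. Among the 48 loci without a pooled peak, 29 had no peak in any list.

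**Figure D1:**
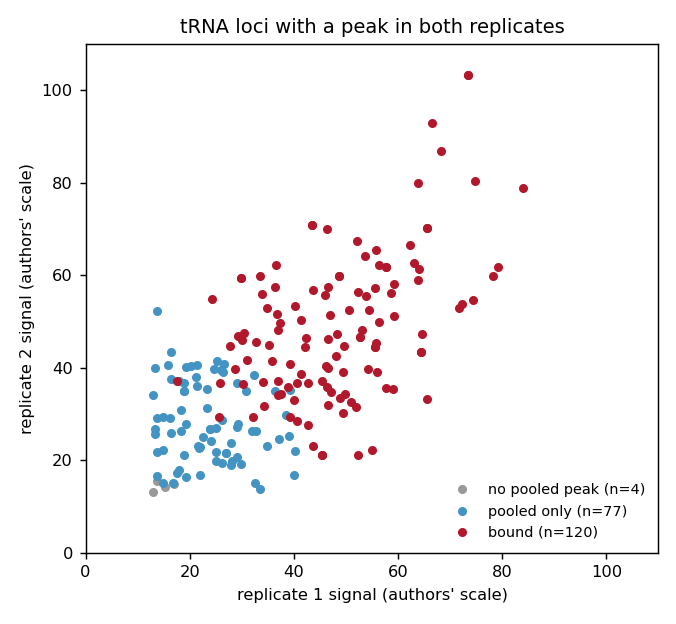
Signal of the strongest peak at each tRNA locus on II to V in replicate 1 (horizontal axis) and replicate 2 (vertical axis), both on the authors' scale, for the 201 loci with a peak in both; the scales of the lists need not be equal. Bound loci (red, n = 120) lie above most loci with only a pooled peak (blue, n = 77) or none (grey, n = 4), but the clouds overlap in each replicate.

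The pooled signal of bound loci ran from 67.8 to 175.5, with a median of 92.6 and quartiles of 77.4 and 112.8. Their peaks held ranks 39 to 553 of 557, so 38 thresholded peaks elsewhere were stronger than any of them. The other 205 thresholded peaks on these chromosomes had a median of 85.0 and reached 403.7. Loci with only a pooled peak ran from 25.9 to 67.4 with a median of 47.4. Bound loci had medians of 47.6 in replicate 1 (17.5 to 83.9) and 46.6 in replicate 2 (21.1 to 103.2). Across the 120 bound loci with both values, Spearman's rho between replicates was 0.391, and across the 201 loci with a peak in both it was 0.612. These are descriptions over loci, which share libraries and, in part, sequence.

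The strongest peak, over the facing lysine and proline genes T23F1.t1 (WBGene00014531) and T23F1.t2 (WBGene00014532), had a signal of 175.5, with 73.4 in replicate 1 and 103.2 in replicate 2. Its summit lay 103 bp downstream of the first base of T23F1.t1 and 107 bp downstream of that of T23F1.t2, which is in the gap between the genes. The lysine gene B0350.t1 (IV 5967160 to 5967232) had 163.4, with 83.9 and 78.9 in the replicates. The threonine gene F52C9.t1 (III 5305905 to 5305976, in an intron of F52C9.5) had 160.7, with 66.5 and 92.8. These 4 genes were strong in both replicates and each belongs to a family of identical copies.

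The tryptophan gene B0523.t1 (III 8678497 to 8678568) lies in an intron of fli-1, a homologue of Drosophila flightless I, and had 153.4 (63.8 and 80.02). T28C12.t1, the cysteine gene without an identical copy shown above, had 153.2 (68.2 and 86.9). F02H6.t1, the bound proline copy, had 151.3 (74.8 and 80.3). The cysteine gene therefore ranked among the multicopy genes, level with B0523.t1.

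The arginine gene F35H8.t1 (II 9566241 to 9566313) had 145.9 (79.2 and 61.8). The isoleucine gene T21B4.t1 (II 12494741 to 12494814, in an intron of the collagen gene col-85, on the opposite strand) had 139.6 (78.3 and 59.8). C14B9.t2, the single-copy leucine gene with its own intron, had 136.6 (74.4 and 54.6). F35H8.t1 held rank 42 in replicate 1 and 121 in replicate 2, T21B4.t1 ranks 44 and 139, and C14B9.t2 ranks 57 and 193, so these 3 stood nearer the top in replicate 1.

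The aspartate gene F41A4.t1 (IV 683063 to 683134) had 132.7 (62.3 and 66.5). The serine gene F42A10.t1 (III 6158778 to 6158859) had 130.6 (65.5 and 70.3), from a peak it shares with the second serine gene F42A10.t2. The 12 strongest loci thus spanned 10 isotypes and all 4 chromosomes, and 5 of them lay in host introns.

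The threshold fell within a continuous range. The lowest thresholded peak anywhere in the genome had a signal of 67.65 and the highest pooled peak outside that list 67.63. Just inside were the histidine gene B0513.t1 (IV 13870265 to 13870336, 67.8, with 40.6 and 28.5 in the replicates), the asparagine gene K02E2.t1 (68.4), the paired proline genes W09D6.t1 and W09D6.t2 in an intron of rsa-2 (68.6) and the glutamate gene Y55F3BR.t1 (69.1). Just outside were the valine gene Y7A9D.t3 (IV 16382431 to 16382503, 67.4, with 20.2 and 40.3), the proline copy Y71H2AM.t1 (67.3), the alanine gene C28A5.t3 (67.0), the leucine gene T14B4.t1 (66.8) and the glutamine gene Y4C6B.t1 (66.8). Bound and pooled-only loci next to the threshold therefore differed in name more than in signal.

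**Figure D2:**
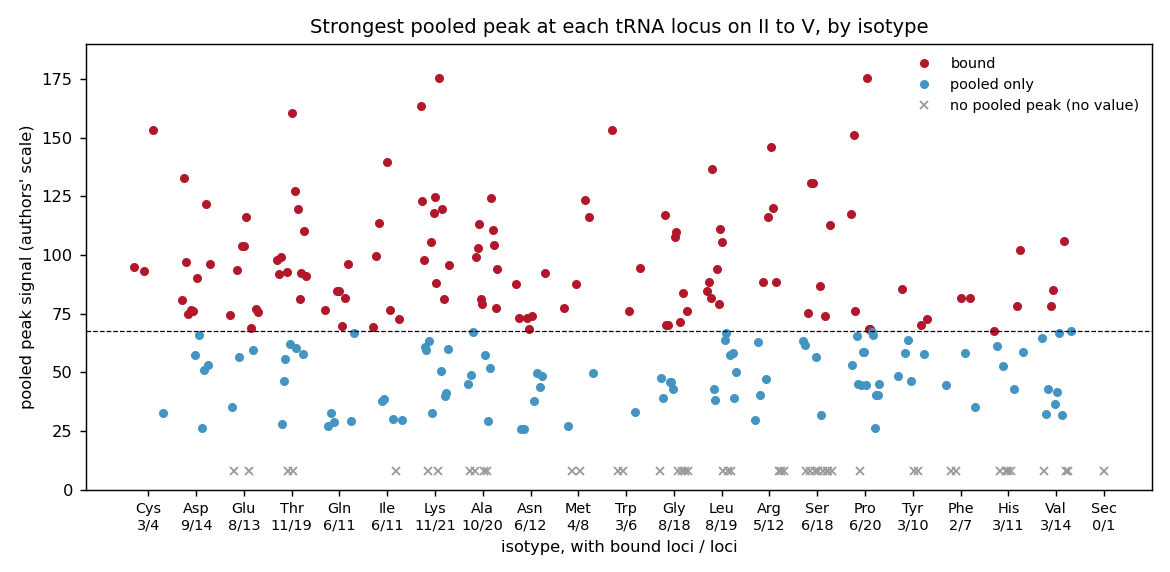
Strongest pooled peak at each tRNA locus on II to V (vertical axis, signal on the authors' scale) by isotype, in order of the share bound; numbers under each name are bound loci of all loci, crosses are loci without a pooled peak, which have no value, and the dashed line is the lowest thresholded signal (67.65). Every isotype except selenocysteine had bound and unbound loci; 1 locus of unnamed isotype is not drawn.

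Bound loci were found for 20 of the 21 isotypes. RefSeq names the isotype of 269 of the 270 genes. The lysine genes had 11 bound of 21 loci, with the highest median signal among isotypes of 10 or more loci (118.1, from 81.2 to 175.5). Arginine was close, at 116.4. Both ends of the lysine range, at W10G11.t1 and T23F1.t1, come from peaks shared with a gene of another isotype. The same holds for C16C8.t1, W09G10.t2 and F49C5.t4. Threonine had 11 of 19 (median 97.8), alanine 10 of 20 (101.1), aspartate 9 of 14 (90.4), glutamate 8 of 13 (85.4), glycine 8 of 18 (80.04) and leucine 8 of 19 (91.3). Cysteine had 3 of 4, arginine 5 of 12, asparagine 6 of 12, glutamine 6 of 11, isoleucine 6 of 11, methionine 4 of 8 and tryptophan 3 of 6.

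The shares were lowest for valine (3 of 14, 21.4%, 4.66 to 50.8), histidine (3 of 11, 27.3%, 6.02 to 60.97), phenylalanine (2 of 7), tyrosine (3 of 10), proline (6 of 20, 30%, 11.9 to 54.3) and serine (6 of 18). Shares were highest for cysteine (75%, 19.4 to 99.4), aspartate (64.3%, 35.1 to 87.2) and glutamate (61.5%, 31.6 to 86.1). The intervals of the lowest and highest isotypes overlapped, and no isotype can be set apart from the others by these counts. The replicates also ordered the isotypes differently. Of the tyrosine loci, 10% were among the strongest of replicate 1 and 40% among those of replicate 2, and of the histidine loci 36.4% and 9.09%. Valine loci stood at 35.7% and 28.6% in the replicates, above their share in the thresholded list. Proline showed how signal and share can part: its 6 bound loci included 2 of the strongest in the set, while 13 of the other 14 had only a pooled peak. Serine had the most loci without a pooled peak, 8 of 18, and 5 of the 21 loci with poor read placement described below are serine genes.

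The most diverged genes were not bound. Divergence was taken as the fewest single-base edits (substitutions, insertions or deletions) that turn a gene into any other nuclear tRNA gene, and its bins were chosen after the values had been seen. Of 196 genes with an identical copy elsewhere, 99 were bound (50.5%, 43.3 to 57.7). Of 40 genes that were 1 to 2 edits away from the nearest other gene, 15 were bound (37.5%, 22.7 to 54.2), of 14 that were 3 to 5 edits away 4 (28.6%, 8.39 to 58.1), and of 7 at 6 to 9 edits 3 (42.9%, 9.90 to 81.6). None of the 13 genes at 10 or more edits was bound (0%, up to 24.7 by the exact interval), and none was among the strongest peaks of either replicate. The difference in share between this last group and the genes with an identical copy was −50.5 points (−57.4 to −26.7).

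Over peaks of any strength the share fell from each bin to the next. A pooled peak was found at 88.8% of loci with an identical copy and at 87.5% at 1 to 2 edits. The share was 64.3% (35.1 to 87.2) at 3 to 5 edits and 42.9% (9.90 to 81.6) at 6 to 9 edits. At 10 or more it was 7.69% (1 of 13, 0.195 to 36.0). The exception was the isoleucine gene Y51A2B.t1 (V 18373963 to 18374036) with a pooled signal of 30.2, from a peak in replicate 1 (17.3) and none in replicate 2. In no list was there a peak at 9 of the 13. They include K11H12.t1, the selenocysteine gene, which is 34 edits from any other tRNA gene. Of the 13 genes 3 are named as histidine and 2 as arginine genes, and 1 has no named isotype, C08E8.t3, which lies about a kilobase from Y51A2B.t1. Of the 13, 11 hold a box B core, all 13 have a T run within 20 bp and 9 lie in host introns. Reads of 50 bases could be placed at 96.6% or more of positions at each of these loci. Whether these genes are transcribed was not measured in these data. On X, 1 of 5 genes this diverged was bound, with a signal of 76.9, and 3 of the 5 had a pooled peak (60%, 14.7 to 94.7).

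Genes without an identical copy were bound less often than genes with one. Of 74 single-copy genes 22 were bound (29.7%, 19.7 to 41.5), a difference of −20.8 points (−32.3 to −7.60) from the 50.5% of the 196 others. The direction was the same in both replicates, with 27.0% against 43.4% in replicate 1 and 24.3% against 43.4% in replicate 2. Without the 13 diverged genes the difference was −14.4 points (−27.3 to −0.109). By copy number, 17 of 31 genes with 2 to 4 copies were bound, 13 of 34 with 5 to 9, 14 of 41 with 10 to 14, 28 of 47 with 15 to 19 and 27 of 43 with 20 to 29. The share did not rise step by step with copy number, being 54.8% at 2 to 4 copies and 34.1% at 10 to 14. The median signal of bound single-copy genes was 93.7 (67.8 to 153.2), beside 92.6 for bound genes with copies. All bound loci lie above the same threshold, so these medians cannot show whether single-copy genes are weaker. A pooled peak was found at 64.9% of single-copy genes and at 88.8% of genes with copies. The median pooled signals at these loci were 66.7 and 73.9. Split instead by the number of nuclear genes of the isotype, genes at or under the median differed from those above it by 3.33 points (−8.51 to 14.98).

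**Figure D3:**
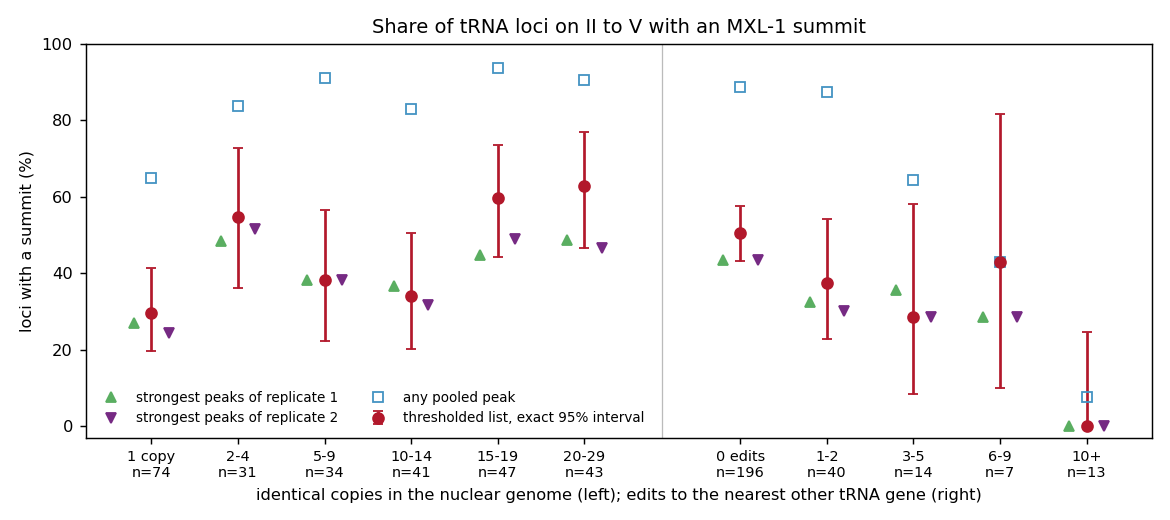
Share of tRNA loci on II to V with a summit (vertical axis, percent) by the number of identical copies in the nuclear genome (left) and by edits to the nearest other tRNA gene (right). Circles with bars are the thresholded list with exact 95% intervals, triangles the strongest 557 peaks of each replicate, squares any pooled peak; the pooled share falls from 88.8% at 0 edits to 7.69% at 10 or more.

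Read placement can change these values. Around each locus the share of 50-base windows that occur once in the genome was computed, and 21 loci had under 80%. Of these 4 were bound (19.05%, 5.45 to 41.9), against 117 of the other 249 (47.0%), a difference of −27.9 points (−40.9 to −6.12). Whether the authors discarded reads that fit several places is not given in the sources used here, and the part of placement in these shares was not tested. Among the 249 loci with 80% or more, 22 of 69 single-copy genes (31.9%) and 95 of 180 others (52.8%) were bound, a difference of −20.9 points. Their median shares of unique windows were 100% and 93.0%. The filter therefore does not make the groups equal in read placement.

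Identical genes differed widely in signal. On II to V, 184 genes fell into 37 families with at least 2 identical members, and 31 families held both bound and unbound copies. In 2 families all copies were bound and in 4 none was. The proline gene shown above has 24 copies in the genome and 11 on II to V, of which 4 were bound. Their pooled signals ran from 26.5 to 175.5 at the 10 copies with a pooled peak. T23F1.t2 and F02H6.t1 stood at 175.5 and 151.3, the 2 copies W09D6.t1 and W09D6.t2 at 68.6, and R11G10.t2 had only a peak in replicate 1 (16.5). The value of T23F1.t2 comes from the peak it shares with the lysine gene T23F1.t1, with the summit between the genes. The lowest pooled signals were at ZK970.t1 (26.5) and ZK970.t2 (40.3), where 71.9% and 74.6% of windows were unique, beside 86.6% at R11G10.t2. Identical gene bodies thus carried very different values, and the part of read placement in them was not tested.

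Copies of other large families also stood on both sides of the threshold. The asparagine family had 6 of 12 copies bound, from 25.9 at F57G8.t2 to 92.4 at ZK507.t1. F57G8.t2 was 59.7% unique, but the bound copies F57G8.t1 and F57G8.t4, which share a peak of 73.0, were 59.0% unique. The unbound copy T09F5.t1 (37.9) was 92.6% unique. The lysine family of B0350.t1 had 6 of 10 bound, from 32.8 at K01A11.t1 to 163.4. The aspartate family of F41A4.t1 had 8 of 10 bound, from 57.2 at W06G6.t3 to 132.7. Every copy of these asparagine, lysine and aspartate families had a pooled peak, as did 82.2% of all 270 loci.

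Families of the same isotype also differed. The glycine family of Y43D4A.t2 had 6 of 8 copies bound (70.2 to 109.7 among the 6 with a pooled peak). The second glycine family had 0 of 5 bound, although 4 of its copies had pooled peaks between 39.0 and 45.8, and none was among the strongest peaks of either replicate. The alanine family of Y65A5A.t1 had 7 of 8 copies bound (57.3 to 110.8), and that of Y38E10A.t1 1 of 5 (29.4 to 124.5). C28A5.t3, 1 base from Y65A5A.t1, stood at 67.0 (32.7 and 26.4), just under the threshold, and Y65A5A.t1 at 110.8 (53.8 and 55.6). These families were picked out after their values had been seen, and differences between them were not tested.

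**Figure D4:**
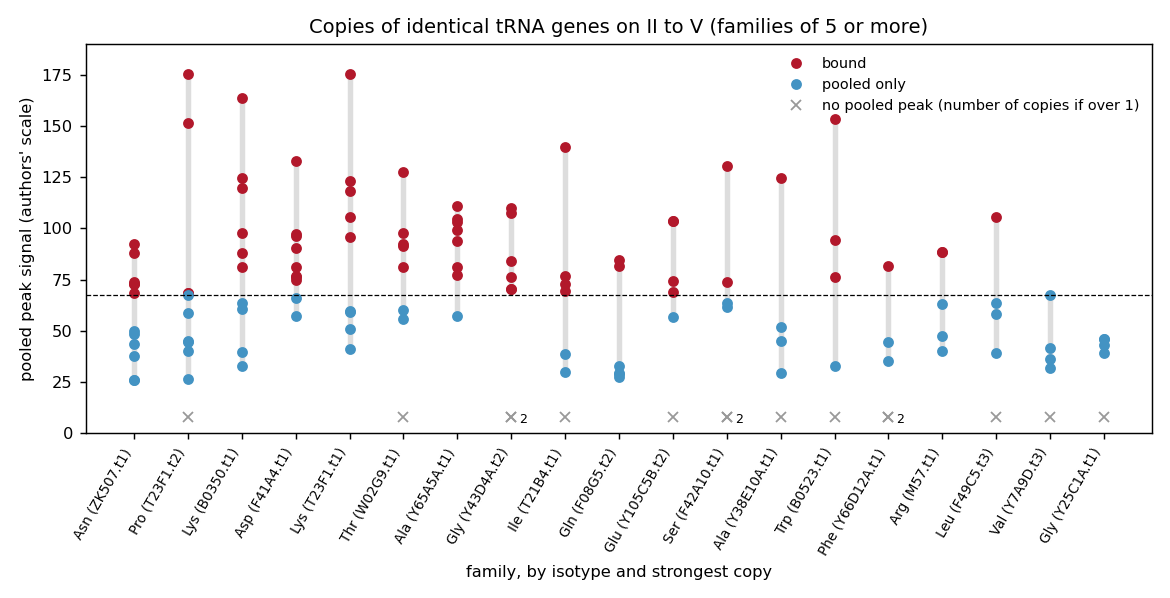
Pooled peak signal (vertical axis, authors' scale) of every copy on II to V in the 19 families of identical tRNA genes with 5 or more copies there, each family named by its isotype and strongest copy. Red points are bound copies, blue points copies with only a pooled peak, crosses copies without one (no value, with their number where over 1), and the dashed line is the lowest thresholded signal; 17 of the 19 families have copies on both sides of it.

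Loci inside host introns and outside them differed by less than their counting error. Of 153 tRNA genes within introns of 127 protein-coding genes, 63 were bound (41.2%, 33.3 to 49.4). Of the 117 others, 58 were bound (49.6%, 40.2 to 59.0), with 57 of 112 outside protein-coding genes and 1 of 5 overlapping an exon. The difference was −8.40 points (−20.0 to 3.52). Median signals of bound loci were 91.2 in introns and 93.8 elsewhere. Genes on the same strand as their host were bound at 35 of 91 (38.5%) and genes on the opposite strand at 28 of 62 (45.2%), a difference of −6.70 points (−22.1 to 8.90). The strongest intronic loci were F52C9.t1 and B0523.t1 on the strand of their hosts and T28C12.t1 on the opposite strand.

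Neighbouring tRNA genes often shared a peak. Another tRNA gene lay within 1000 bp of 79 genes, in 37 clusters, of which 33 hold 2 genes. Of these 79 genes 40 were bound (50.6%, 39.1 to 62.1), against 81 of 191 isolated genes (42.4%, 35.3 to 49.8), a difference of 8.22 points (−4.69 to 20.9). Where each summit marked only its nearest gene, 27 of the 79 were bound and the difference turned to −8.23 points (−20.1 to 4.67), and with windows of 100 bp it was −0.636 points. The direction therefore depended on how a summit between genes was assigned. Of the 13 peaks that marked 2 genes, 9 had the summit between them, 3 inside 1 of them and 1 outside both.

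All 9 genes in the 3 clusters of 3 were bound, through 6 peaks, beside 28 of 66 genes (42.4%) in clusters of 2. The strongest peaks of replicate 1 marked 6 of the 9 and those of replicate 2 marked 5. Some were marked by a distant summit. It lay 245 bp downstream of the first base at F49C5.t3, 304 bp downstream at F08G5.t2 and 248 bp upstream at K04C2.t1. At the cluster of nimk-1 on II, 1 peak of 105.4 (64.4 and 43.4 in the replicates) marked the lysine gene F49C5.t4 and the leucine gene F49C5.t3, and a second of 81.3 the alanine gene F49C5.t2. At brd-1 on III, the homologue of human BARD1, a peak of 118.1 (53.6 and 64.2) lay at the lysine gene K04C2.t3 and a weak one of 70.2, with its summit beyond the 3′ end of the glycine gene K04C2.t2, marked that gene and the glycine gene K04C2.t1. On IV, a peak of 84.5 marked the glutamine genes F08G5.t3 and F08G5.t2 and one of 88.5 the arginine gene F08G5.t1.

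The cluster of 4 on IV showed separate peaks within 3 kb. The alanine genes Y65A5A.t1 and Y65A5A.t2 had 110.8 and 104.5, and the histidine gene Y65A5A.t4 had 102.1 (43.6 and 56.9). The valine gene Y65A5A.t3 between them had 31.9 (13.7 and 16.5) and was not bound. At this gene 92.0% of windows were unique. On II, a threonine gene and a lysine gene stood in the same order and strand at C16C8.t2 and C16C8.t1, W09G10.t3 and W09G10.t2, and W10G11.t2 and W10G11.t1, and each pair shared a peak with its summit between the genes, at 97.8, 119.6 and 81.2. These pairs were chosen after their values had been seen.

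Summits lay mostly inside the gene. Over all bound loci the median summit was 28 bp downstream of the first base of the tRNA gene (quartiles −4 and 64), with 33 upstream of the gene, 71 inside and 17 beyond its end. For the 81 bound loci without a neighbour the median was also 28 bp (quartiles 5 and 58), and 59 of them (72.8%) had the summit inside the gene, whose median length over all loci was 72 bp. A box B core was found in 259 of the 270 genes, starting at a median of 52 bp, and a box A core in 121, at 8 bp. Summits of the replicates at the 120 bound loci with both were a median of 37.5 bp apart, and 109 pairs (90.8%) were within 100 bp.

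Promoter elements of RNA polymerase III were found at bound and unbound loci. Of the 259 genes with a box B core 119 were bound (45.9%), and of the 11 without 2 (18.2%, 2.28 to 51.8). These 2 are the identical methionine genes T15B12.t1 and Y22D7AL.t3, and the summit at Y22D7AL.t3 lay inside its neighbour, the glutamate gene Y22D7AL.t4. The 11 also include Y73B6BL.t2 and Y113G7B.t1, which are among the 13 most diverged genes. Box B cores with the letters GTTCAA were in 72 genes, 36 of them bound, and those with GTTCGA in 187, 83 of them bound. The difference was 5.61 points (−7.72 to 18.8). Genes with a box A core were bound at 58 of 121 (47.9%) and the others at 63 of 149 (42.3%). Both cores were searched as exact matches. The box A core was found in no aspartate, asparagine, glutamate, glutamine, glycine, tryptophan or valine gene, and in every lysine and leucine gene. The box A split therefore largely follows isotype and does not show which genes lack a box A. A T run of 4 or more followed 265 genes within 20 bp, of which 119 were bound. Of 16 genes with an intron of their own 7 were bound.

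**Figure D5:**
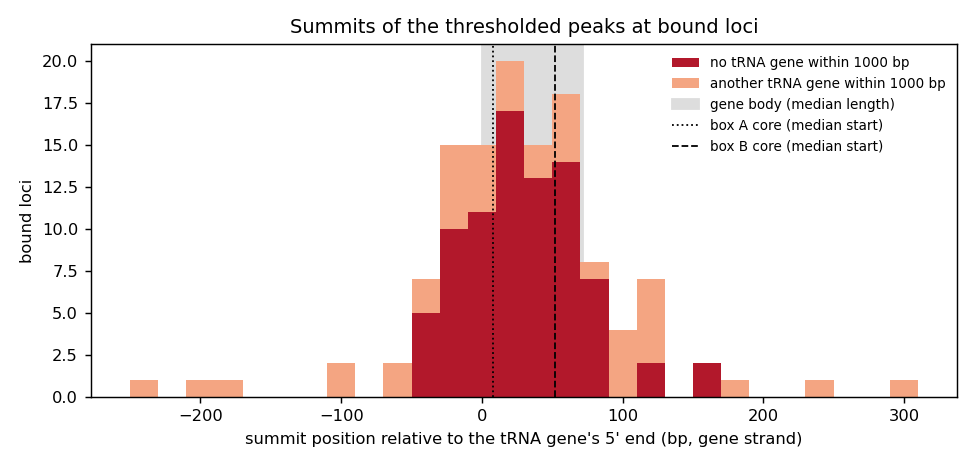
Position of the thresholded summit relative to the 5′ end of the tRNA gene (horizontal axis, bp along the gene strand) for the 121 bound loci (vertical axis, number of loci in bins of 20 bp), isolated genes in dark red and genes with a neighbour in light red. The grey band is the median gene body of 72 bp and the lines the median starts of the box A and box B cores; summits of isolated genes gather around the gene body with a median of 28 bp.

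The E-box CACGTG was rare at bound loci. Searched on both strands within 100 bp of the summit, it was present at 3 of 121 bound loci (2.48%, 0.514 to 7.07). It was present within 100 bp of the gene start at 1 of 149 unbound loci (0.671%) at 2 of 121 bound gene starts (1.65%) and at 4.42% of protein-coding starts on II to V, and in no tRNA gene body. The 3 bound loci were the isoleucine gene C27A2.t1 (69.5, with 43.7 and 23.2), the glutamate gene ZK783.t1 in an intron of upp-1 (75.8, with 52.4 and 21.1) and the arginine gene F29C4.t1 in an intron of the collagen gene col-99 (116.4, with 58.6 and 56.1). They were named after their values had been seen, and 2 of them were under the median of bound loci.

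The variant CACATG was more common, but CACGTG reads the same on both strands and CACATG does not. A search of both strands therefore favours CACATG. It lies in the gene body at 14 of its 24 bound loci and at 7 of its 19 unbound loci. It was present near 24 of 121 bound summits (19.8%, 13.1 to 28.1), near 23 of 121 bound gene starts (19.01%, 12.4 to 27.1), near 19 of 149 unbound gene starts (12.8%, 7.86 to 19.2) and at 6.33% of protein-coding starts. It lay within the gene body of 21 of the 270 genes, at position 36 of 13 of the 14 aspartate genes, on the other strand at position 4 of 7 of the 13 glutamate genes, and in 1 alanine gene. Of these 21 genes 14 were bound. Aspartate and glutamate, the isotypes with most of these genes, had bound shares of 64.3% and 61.5%, whose intervals overlapped those of the other isotypes. Of the 7 glutamate genes with the hexamer 4 were bound, beside 8 of all 13 glutamate genes. Of these 7, 6 are identical copies, and the bound copies Y105C5B.t2 and Y105C5B.t3 share a peak. Of the 13 aspartate genes with the hexamer 9 were bound, but 10 of the 13 are identical copies. Identical copies are not separate observations of the hexamer in either isotype. A link between the hexamer and binding was not tested.

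The 4 chromosomes did not differ beyond their counting error. The bound share was 47.4% on II, 50% on III, 47.9% on IV and 35.9% on V, and V differed from the other 3 by −12.5 points (−24.6 to 0.546). On the X chromosome, 157 of 276 tRNA loci were bound (56.9%), which is 12.1 points (3.68 to 20.2) above II to V, with a difference of 11.1 points (1.58 to 20.4) among genes with identical copies and 8.87 points (−7.21 to 24.8) among single-copy genes. The median signal of bound loci was 101.8 on X and 92.6 on II to V.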

How the data were processed

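ChIP-seq peak lists (narrowPeak, ce11) were used: a thresholded list of 557 peaks, a pooled list of 14200 and 1 list per replicate (20313 and 21882). Aligner and peak caller: not given in the sources used here. Per the deposited files, the authors gave each peak a signal of unstated scale and a −log10 q, equal for all thresholded peaks and not used to rank. Chromosome names and lengths of WBcel235 matched the lists. Genes came from Ensembl release 115, isotypes and sequence from RefSeq. A locus took the strongest peak whose summit fell within 250 bp of the gene; a summit could mark several genes. Protein-coding windows reached 286 bp either side of the start. Edits were counted with edlib, shares and intervals with scipy 1.17.1 and statsmodels 0.14.6, in Python 3.11.15 with pandas 2.3.3, numpy 2.4.6 and matplotlib 3.10.9. The assignment was tested on simulated data. No chance test was run.

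Named loci were the 12 strongest, 5 bound and 5 unbound loci at the threshold, the strongest of each isotype, the largest clusters (4, because of ties), the strongest and an unbound copy of the 4 largest identical families and every selenocysteine gene. Members and lists were chosen with earlier results of these data known. Depth is unknown.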

Additional observations from a re-analysis of the deposited data

How the results depend on the processing

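The share of loci bound was 42.2% with 100 bp windows, 45.6% with 500 bp, 40% where a summit marked only its nearest gene, 23.7% with the stronger 278 thresholded peaks and 59.6% with the strongest 1114 pooled peaks. It was 47.0% over loci at least 80% unique and 47.1% without the 13 most diverged genes, both chosen after seeing the data, and 38.1% to 38.9% by single replicates. The difference between intron and other loci was −3.37 points with 1114 pooled peaks and −6.79 to −2.06 by single replicates. The difference between clustered and isolated loci was −0.636 with 100 bp windows, 10.8 with 500 bp, −8.23 with the nearest gene only, 11.2 with 278 peaks, 3.39 with 1114, 9.14 over unique loci, 5.13 without diverged genes, 8.80 for neighbours within 500 bp, 3.59 within 5000 bp, and 8.70 to 9.44 by single replicates. For single-copy against other genes it was −17.2 with 100 bp windows, −16.0 with the nearest gene only, −12.2 with 278 peaks, −18.9 with 1114, −14.4 without diverged genes and −19.04 to −16.3 by single replicates. Splitting by isotype size instead gave 3.33, a turn in direction that comes with a different grouping of genes. The median signal was 111.1 with 278 peaks, 81.6 with 1114 and 49.6 to 51.3 on the scale of single replicates. The copy-number difference kept its direction, and an interval below 0, in all alternatives that kept its grouping. No paired analysis was possible because there is 1 group. The unstated signal scale and unknown depth limit all comparisons of level.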
